A study of Mus musculus with 4 samples.

Results

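The genes described here are 34 genes of glycolysis and of the response to low oxygen, of 31053 genes listed in the files. They were taken by symbol from a fixed list and fall into 4 sugar and lactate transporters, 16 glycolytic enzymes and 14 hypoxia-induced regulators. The list was chosen with earlier results of these data known. Glycolysis splits glucose into pyruvate in the cytosol. Lactate dehydrogenase turns pyruvate into lactate, which leaves the cell through monocarboxylate transporters. Under low oxygen the prolyl hydroxylases that mark the HIF-1α subunit for destruction work slowly, and the HIF complex then binds promoters with the core letters ACGTG or GCGTG and raises transcription of transporters, enzymes and its own inhibitors. Activated T cells, NK cells and inflammatory macrophages are known to use glycolysis heavily also where oxygen is present.

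RNA of single cells from mouse liver was counted in 4 libraries of 10x Genomics 5' chemistry, which tags each captured transcript with a unique molecular identifier (UMI). The labels cross a genotype at Mef2d, KO or WT, with a stage, premalignant liver or early hepatocellular carcinoma (eHCC), and each combination has 1 library. Mef2d encodes a MADS-box transcription factor. The allele, the cells in which it was deleted, the strain, the age, the way tumours arose and the number of animals per library are not stated in the labels.

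After filtering, the premalignant libraries kept 8775 (KO) and 12225 (WT) cells and the eHCC libraries 8359 (KO) and 9440 (WT), with median depths of 4279, 4614, 7310 and 8259.5 UMIs in this order. Pairs of libraries shared 27 to 46 barcodes. RNA of Mef2d did not separate the labels as a loss of transcript would: in T-like cells it was 106 CPM (counts per 1000000 UMIs of the cells named) in the premalignant library labelled KO and 71.4 CPM in the one labelled WT, and 108 against 71.1 CPM at eHCC. The count does not show which exon was removed, so it cannot check the label, and groups are called by their labels throughout. Hepatocyte-like cells numbered 33 and 29 in the KO and WT eHCC libraries, so tumour cells are not described. The classes below are immune and endothelial cells named by marker genes, all with the ending "like". With 1 library per group there is no test between groups. Intervals are exact 95% intervals and cover counting error only, and cells are not replicates.

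The HIF core letters were searched for in the promoters of the members. RefSeq promoters of build GRCm38.p6 were matched for 31 of the 34 members, and the 250 bases before each start were searched on both strands for ACGTG and for GCGTG. The palindrome CACGTG holds ACGTG on both strands and counts once per strand. At least 1 match was found in 27 of 31 members (87.1%), against 41.5% of 27025 genes with a promoter. The share was 81.3% of the 16 enzymes and 91.7% of the 12 matched regulators. Member promoters were also richer in G and C, with a median of 62.8% against 52.4%, and its part in the match rate was not tested. A match is a description of letters and not a binding site.

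The sequences below belong to members that were at least 1.5-fold higher in T-like, NK-like and phagocyte-like cells alike in the eHCC library labelled KO (described further on), with the matches in capitals on the gene's strand and 5' to 3'. Positions are those of the printed stretches before the start. The stretch of Slc2a1, the glucose transporter GLUT1, lies at chr4:119108664-119108733 (plus strand). That of Slc16a1, a monocarboxylate transporter that can carry lactate in or out, lies at chr3:104638444-104638554 (plus strand). That of Slc16a3, the lactate exporter MCT4, lies at chr11:120949020-120949066 (plus strand). That of Aldoa, the main aldolase outside liver and brain, lies at chr7:126799356-126799400 (minus strand), for 1 of its 3 promoters. That of Ankrd37, a small ankyrin repeat protein known as a HIF target, lies at chr8:45999851-46000100 (minus strand), with 4 matches.
Slc2a1: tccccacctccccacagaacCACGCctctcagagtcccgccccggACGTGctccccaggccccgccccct
Slc16a1: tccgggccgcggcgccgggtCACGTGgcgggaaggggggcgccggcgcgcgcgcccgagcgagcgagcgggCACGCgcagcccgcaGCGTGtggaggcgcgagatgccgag
Slc16a3: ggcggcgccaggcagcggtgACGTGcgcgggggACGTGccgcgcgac
Aldoa: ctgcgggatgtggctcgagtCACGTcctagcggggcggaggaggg
Ankrd37: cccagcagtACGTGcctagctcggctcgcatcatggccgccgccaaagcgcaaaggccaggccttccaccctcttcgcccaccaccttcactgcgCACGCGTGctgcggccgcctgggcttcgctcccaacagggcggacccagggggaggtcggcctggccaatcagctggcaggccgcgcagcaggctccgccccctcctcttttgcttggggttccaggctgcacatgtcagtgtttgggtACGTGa
The other gene higher in all 3 lineages, the triosephosphate isomerase Tpi1, had no match in this window.

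Levels were ranked over 8 lineages, T-like, NK-like, B-like, phagocyte-like, neutrophil-like, plasmacytoid dendritic-like, LSEC-like (liver sinusoidal endothelial) and Kupffer-like cells, wherever a library had at least 50 of them. Hepatocyte-like, vascular endothelium-like, mast cell-like and erythroid-like cells were not ranked. Neutrophil-like cells (51, 53, 50 and 671 cells, in the order of libraries given above, which is kept for every run of 4 values) held the highest levels of the glucose transporters, the lactate exporter and the bifunctional enzyme Pfkfb4 in all 4 libraries, although for Slc2a1 their interval overlapped that of phagocyte-like cells in the KO eHCC library. Slc16a3 there was 578, 625, 1280 and 332 CPM, while phagocyte-like cells had 35.7, 39.0, 197 and 42.9 CPM and B-like cells at most 2.48 CPM. Slc2a3, the high-affinity glucose transporter GLUT3, was 383, 399, 502 and 188 CPM in neutrophil-like cells. Hk3, a myeloid hexokinase, was 105, 94.0, 86.3 and 58.3 CPM in neutrophil-like cells and at most 1.35 CPM in T-like cells. Kupffer-like cells led for Hk3 in the WT premalignant library, at 121 CPM, with an interval that overlapped that of neutrophil-like cells. Slc16a1 went the other way among the lactate carriers: T-like cells had 28.4, 21.3, 30.2 and 18.7 CPM, the highest of the ranked lineages (unranked erythroid-like cells of the KO eHCC library had 110.5 CPM), whereas neutrophil-like cells had 2.21 CPM (7 UMIs) in the WT eHCC library and 0 UMIs in the others, which allows up to 19.4, 17.3 and 11.8 CPM there.

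Phagocyte-like cells (310, 321, 1155 and 3677 cells, monocytes, macrophages and dendritic cells together) had the highest Pgk1 and Pgam1 of the ranked lineages in all 4 libraries. Pgk1, phosphoglycerate kinase, was 171, 171, 374 and 170 CPM there and Pgam1, phosphoglycerate mutase, 194, 245, 379 and 285 CPM. The interval of the next lineage overlapped for both genes in the premalignant libraries and for Pgam1 in the WT eHCC library, and unranked vascular endothelium-like cells of the WT eHCC library had more Pgk1, at 193 CPM. Hk2, the inducible hexokinase, was 85.3, 82.4, 136 and 116 CPM in phagocyte-like cells and 8.79, 4.57, 22.5 and 13.6 CPM in T-like cells. Other enzymes had other leaders: Pkm, the pyruvate kinase of most tissues, was highest in neutrophil-like cells in 3 libraries, and Gapdh in phagocyte-like cells in 3 and Kupffer-like cells in 1. Pfkfb3, which makes the activator of phosphofructokinase, was 26.1 to 45.1 CPM in phagocyte-like cells, the highest of the ranked lineages in each library, with the next lineage's interval clear of it only in the WT eHCC library. Eno2, the neuronal enolase, reached at most 4.51 CPM in any of these lineages.

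The leaders among the 14 regulators were counted in each library. LSEC-like cells were highest for 5 and 4 of them in the KO and WT premalignant libraries, and neutrophil-like cells for 3 and 4. Of these neutrophil-like leads, only that for Pfkfb4 was clear of the next lineage's interval. Egln3, for example, led there at only 5.25 (KO) and 9.40 CPM (WT). The next interval also overlapped that of LSEC-like cells for Egln1 in the KO and Bnip3l in the WT library. At eHCC, phagocyte-like and neutrophil-like cells were highest for 6 and 5 in the KO library and for 3 and 6 in the WT library. The next lineage's interval overlapped for Pfkfb3, Egln3, Bnip3, Bnip3l and Hif1a in the KO library. In the WT library it did so for P4ha1, P4ha2, Ndrg1 and Ero1l. The eHCC libraries held too few LSEC-like cells to rank, so these counts do not compare the leaders between the stages. LSEC-like cells, compared only in premalignant liver where 2970 and 5624 cells were found, had 235 CPM of Ndrg1 (KO) and 200 CPM (WT), a stress-induced gene that is known as a HIF target, against 7.72 and 10.2 CPM in T-like cells. P4ha2, a collagen prolyl hydroxylase subunit, was 31.7 and 29.8 CPM in LSEC-like cells and at most 2.46 CPM in phagocyte-like cells of the 4 libraries. Kupffer-like cells of the WT premalignant library came next to LSEC-like cells there, at 9.59 CPM. Unranked mast cell-like cells of the KO eHCC library had more P4ha2 than LSEC-like cells (last paragraph). Bnip3l, a mitophagy receptor, was 239 and 264 CPM in LSEC-like cells, and 608 and 584 CPM in the unranked erythroid-like cells of the KO and WT eHCC libraries. Pdk1, the kinase that holds pyruvate back from the mitochondria, was highest of the ranked lineages in T-like cells, at 53.3, 42.1, 21.2 and 29.9 CPM, with 48.7 CPM in vascular endothelium-like cells of the WT eHCC library. Levels of Egln1, the main prolyl hydroxylase acting on HIF-1α, were 65.9 to 74.5 CPM over the 4 T-like samples and 46.1 to 58.0 CPM over the 4 phagocyte-like samples. Between lineages they differed more. In the WT premalignant library they ran from 99.2 CPM in LSEC-like to 28.2 CPM (6 UMIs) in neutrophil-like cells. In the WT eHCC library they ran from 71.9 CPM in NK-like to 30.3 CPM (61 UMIs) in B-like cells.

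Barcodes of cluster 5, an unnamed cluster of low depth (median 1237 UMIs) led by the hepatocyte genes Bhmt and Gnmt, were compared in premalignant liver only. They had 3362 CPM of Gapdh in the library labelled KO and 4155 CPM in the one labelled WT, with 693 and 776 CPM of Tpi1 and 230 and 208 CPM of Bnip3. Of 18 members, 2 were at least 1.5-fold higher under KO and 1 lower, where 16.4% and 6.55% of all genes were.

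**Figure D1:**
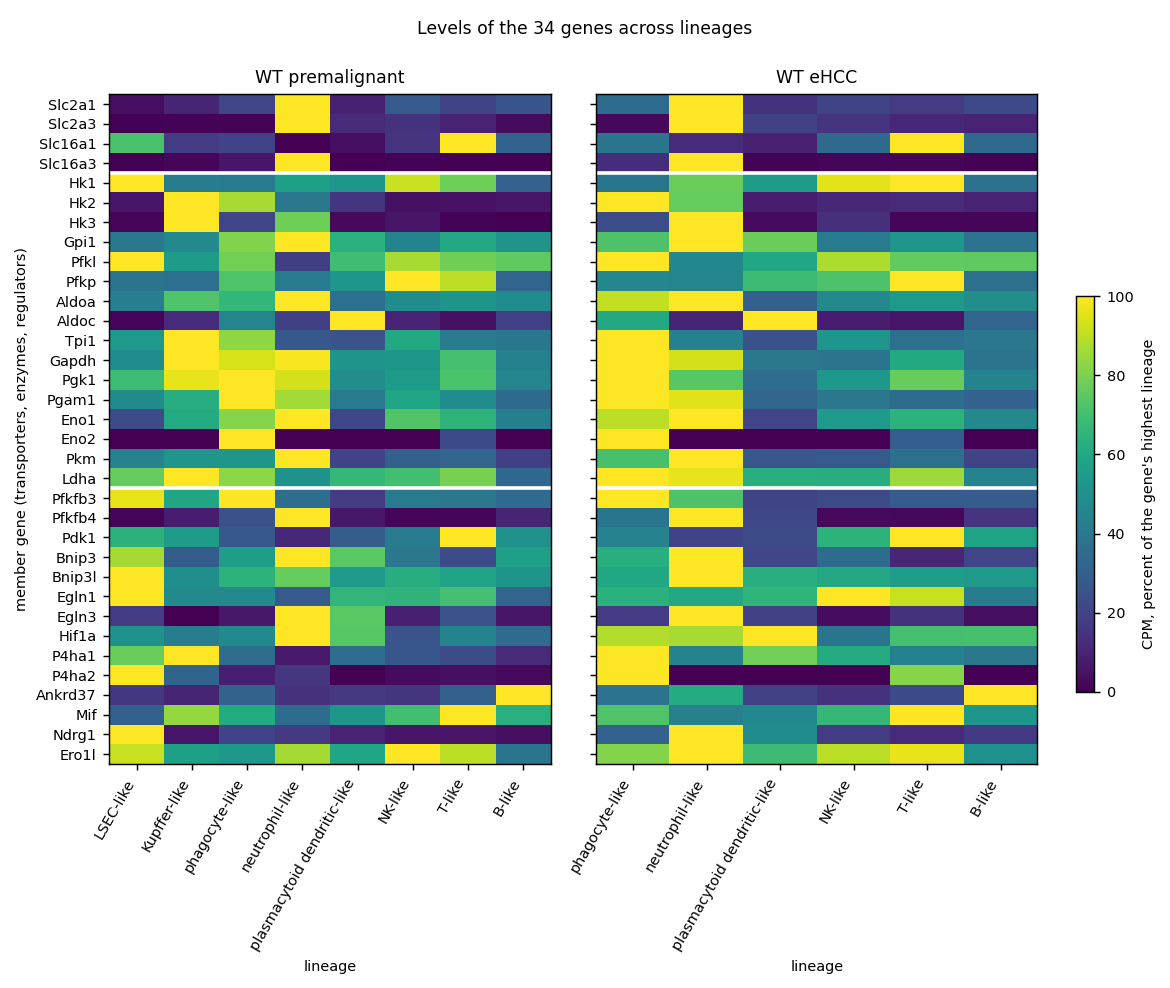
Each panel is 1 library labelled WT, premalignant or eHCC. Each row is a member and each column a ranked lineage with at least 50 cells in that library. Colour gives the CPM as a percent of the gene's highest lineage in that library. The white lines separate transporters, enzymes and regulators. Slc2a1, Slc2a3 and Slc16a3 peak in neutrophil-like cells in each panel.

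Within the hexokinases, the isoform in use differed by lineage and by stage. A UMI marks 1 captured transcript whatever its length, so the 3 genes can be set against each other as shares of their joint UMIs. For T-like cells the Hk2 share was 12.5%, 8.96%, 35.9% and 25.7%. For NK-like cells it was 7.35%, 6.41%, 35.02% and 22.4%, with Hk1, the constitutive isoform, as nearly all of the rest in T-like cells. The exact interval for T-like cells was 10.2% to 15.1% in the KO premalignant library and 34.1% to 37.8% in the KO eHCC library. For the libraries labelled WT the corresponding bounds were 6.59% to 11.8% and 23.5% to 28.0%. The Hk2 share was thus higher in both eHCC libraries than in both premalignant libraries beyond counting error in T-like cells. Phagocyte-like cells were mostly Hk2 in each library, at 60.9%, 62.8%, 69.5% and 80.2%. Within cluster 10, monocytes led by F13a1 and Vcan, the Hk2 share of the eHCC libraries was 67.9% and 65.9%, with overlapping intervals. In neutrophil-like cells of the WT eHCC library Hk2 reached 50.1%, against 7.41% of only 27 hexokinase UMIs in the KO premalignant library. These libraries differ in genotype label and stage. The former cells were 54.7% cluster 25 and 45.3% cluster 22, and the latter all cluster 22. In the WT eHCC library, Hk1, Hk2 and Hk3 had 46, 204 and 20 UMIs in the whole of cluster 25. They had 50, 78 and 166 UMIs in cluster 22. The part of the cluster mix in the share was not tested.

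The mix of glucose transporters also differed by stage. Of the joint UMIs of Slc2a1, Slc2a2 and Slc2a3, Slc2a1 made up 27.3%, 32.7%, 68.1% and 50.2% in T-like cells and 28.5%, 31.1%, 67.8% and 46.1% in NK-like cells. In T-like cells Slc2a3 was 61.4 CPM before and 23.3 CPM at eHCC in the libraries labelled KO, and 39.5 and 20.8 CPM in those labelled WT. Slc2a1 was 23.3 and 49.9 CPM in the former and 19.4 and 21.3 CPM in the latter. Slc2a3 was thus lower at eHCC under both labels, and the larger difference in Slc2a1 was that between the libraries labelled KO.

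**Figure D2:**
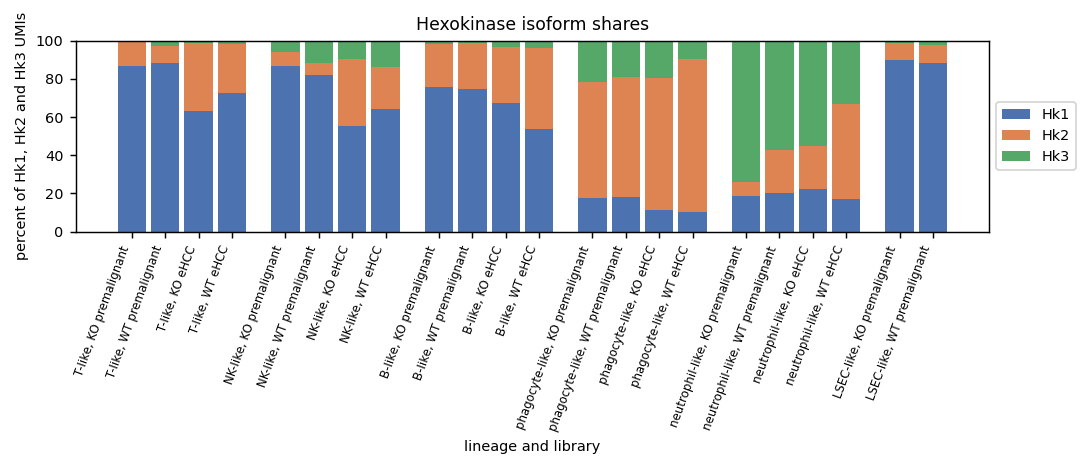
Bars stack the percent of Hk1, Hk2 and Hk3 UMIs for each lineage and library. Phagocyte-like cells show mostly Hk2 in all 4 libraries, and in T-like and NK-like cells the Hk2 part is larger in both eHCC libraries than in both premalignant ones.

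The genotype labels were compared within each stage, on the sum of UMIs of a lineage. A member was counted as higher or lower when its CPM differed by at least 1.5-fold and it had at least 50 UMIs in both libraries together, and the share of all genes with that many UMIs that passed the same fold is given as the background. The comparisons share libraries and so are not independent of each other. Because the members were chosen with earlier results of these data known, their counts beside the background are a description only.

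At eHCC, the enzymes were higher in the library labelled KO in T-like, NK-like and phagocyte-like cells but not in B-like cells. Summed over the 16 enzymes, the share of all UMIs was 0.365% (KO) against 0.247% (WT) in T-like cells, 0.332% against 0.191% in NK-like cells and 0.598% against 0.397% in phagocyte-like cells, while B-like cells had 0.169% and 0.166%. Among T-like cells, 13 of 31 members were higher and 0 lower, against 8.34% of all genes higher and 18.2% lower. In NK-like cells 16 of 27 were higher and 1 lower (background 8.43% and 15.3%), and in phagocyte-like cells 16 of 32 were higher and 3 lower (13.7% and 19.6%). In B-like cells 1 of 22 was higher and 2 were lower (7.38% and 12.8%). The median log2 ratio of the enzymes stood at 0.55 for T-like, 0.80 for NK-like, 0.58 for phagocyte-like and 0.05 for B-like cells, where the median over all genes was between -0.11 and -0.05. The regulators had lower medians than the enzymes in each of these lineages, at 0.42, 0.24, 0.40 and -0.14.

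**Figure D3:**
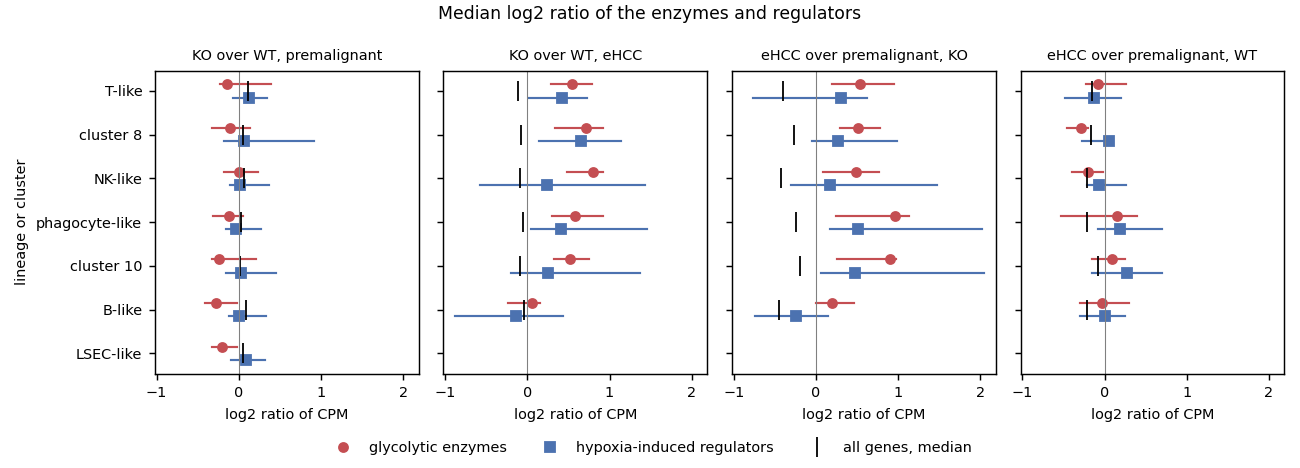
Points give the median log2 ratio of CPM for the enzymes and the regulators beside that of all genes, by lineage or cluster, in each of the comparisons. The enzyme median lies at 0.55, 0.80 and 0.58 in T-like, NK-like and phagocyte-like cells at eHCC, KO over WT, and at 0.05 in B-like cells.

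Among members with at least 50 UMIs, the lactate exporter Slc16a3 had the largest ratio in T-like and NK-like cells. It was 16.9 CPM (686 UMIs) against 4.92 CPM (137 UMIs) in T-like cells, a log2 ratio of 1.77 (1.51 to 2.05), and 21.8 against 5.53 CPM in NK-like cells, a log2 ratio of 1.98 (1.10 to 2.98). Slc2a1 was 49.9 against 21.3 CPM in T-like cells, a log2 ratio of 1.23, and 55.1 against 24.4 CPM in NK-like cells, a log2 ratio of 1.17. Both were higher in phagocyte-like cells as well, Slc16a3 at 197 against 42.9 CPM and Slc2a1 at 98.01 against 42.7 CPM. Slc2a3 went the other way there, at 2.30 against 3.80 CPM, and this direction turned when doublets were kept (log2 ratio 1.62 in place of -0.72). The 1 member higher in B-like cells was also a transporter. In the clusters that held most B-like cells, Slc2a1 was 40.7 CPM (cluster 18, KO eHCC) against 27.3 CPM (cluster 0, WT eHCC). These cluster values are not the lineage sums on which the member was counted, and lie just under a 1.5-fold difference.

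Of the enzymes, Gapdh, which oxidises glyceraldehyde phosphate, was 1358 against 825 CPM in T-like cells and 1010 against 522 CPM in NK-like cells. Ldha, which makes lactate, was 372 against 175 CPM in NK-like cells and 511 against 282 CPM in phagocyte-like cells. Pfkp, a phosphofructokinase isoform, had a log2 ratio of 1.29 in phagocyte-like and 0.92 in NK-like cells. Hk3 was 37.7 against 13.7 CPM in phagocyte-like cells. Aldoc, the minor aldolase, differed in direction: 1.35 against 0.683 CPM in T-like cells, from 55 and 19 UMIs, but 3.24 against 7.42 CPM in phagocyte-like cells. Several enzymes, Gapdh among them, have near-identical processed copies in the genome, so a part of their reads may have been split between copies by the counting.

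Among the regulators, Ankrd37 had a high ratio in 3 lineages and a low one in B-like cells. It was 24.2 against 7.94 CPM in T-like cells (987 and 221 UMIs, log2 ratio 1.61), 13.7 against 5.07 CPM in NK-like cells and 36.8 against 13.4 CPM in phagocyte-like cells, but 19.2 against 35.2 CPM in B-like cells. Hif1a, the oxygen-regulated subunit itself, was 116 against 70.05 CPM in T-like cells and 68.3 against 38.3 CPM in NK-like cells. Ndrg1 was 53.0 against 10.1 CPM and Egln3, a prolyl hydroxylase induced by HIF, 22.6 against 4.70 CPM in phagocyte-like cells. Mif, a cytokine that is also a HIF target, was 417 against 205 CPM there. Pdk1 was the 1 member lower in NK-like cells, at 12.2 against 19.4 CPM from 51 and 42 UMIs. Bnip3l and Egln1 stayed within 1.5-fold in T-like, NK-like, B-like and phagocyte-like cells.

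In B-like cells Tpi1 was 38.4 against 65.5 CPM, a log2 ratio of -0.77 (-1.16 to -0.38), while the same gene had log2 ratios of 0.93, 0.80 and 0.92 in T-like, NK-like and phagocyte-like cells. B-like cells of the eHCC libraries were of different clusters: 97.6% were in cluster 18 (Iglc1, Igha, Jchain) in the library labelled KO and 92.7% in cluster 0 (Cd79a, Ms4a1) in the one labelled WT.

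The other lineages also differed in their clusters, and members were compared within those that had at least 100 cells in both libraries. T-like cells of the KO eHCC library were mostly cluster 2 (60.7%, led by Pdcd1), and those of the WT eHCC library were mostly clusters 3 (39.97%) and 7 (24.3%). Phagocyte-like cells were mostly cluster 10 in the former (62.3%) and clusters 6 (45.0%, led by Fcrls) and 11 (35.4%, led by Chil3) in the latter. Within cluster 8, T-like cells led by Tnfrsf4 and holding Foxp3, 17 of 29 members were higher and 0 lower (background 7.16% and 13.2%), with an enzyme median of 0.72. Within cluster 10, 15 of 30 were higher and 0 lower (6.95% and 10.6%), with a median of 0.51. Within cluster 15, led by the Kupffer cell genes Cd5l and Clec4f, 20 of 29 were higher and 1 lower (5.33% and 11.9%), with a median of 0.97. Most eHCC cells of cluster 15 fell in the phagocyte-like lineage, 224 of 244 under KO and 252 of 302 under WT. Their cluster had median depths of 4793.5 (KO) and 8149.5 (WT) UMIs at eHCC. Within cluster 21, proliferating T-like cells, 16 of 27 were higher and 0 lower (7.54% and 8.26%), with a median of 0.65. Cluster 20, dendritic cells led by Xcr1, had the smallest difference of these, with 7 of 24 higher and 0 lower (9.09% and 10.8%) and an enzyme median of 0.18. The comparisons within clusters 15, 20 and 21 were added after the data were seen.

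Within cluster 10 some members had larger ratios than in all phagocyte-like cells and others smaller ones. Egln3 was 26.0 CPM (248 UMIs) against 2.03 CPM (7 UMIs), a log2 ratio of 3.68 (2.62 to 5.01), and Mif was 355 against 115 CPM. Smaller folds than in the whole lineage were found for Slc16a3 (2.79 against 4.6), Ndrg1 (2.04 against 5.23), Hk3 (1.55 against 2.76), Slc2a1 (1.69 against 2.3) and Ankrd37 (2.06 against 2.75). In cluster 8 Slc16a3 was 36.6 against 7.42 CPM and Hif1a, with the same log2 ratio of 0.73 as in all T-like cells, 320 against 193 CPM. Tpi1 was higher in both, at 288 against 124 CPM in cluster 10 and 188 against 75.3 CPM in cluster 8.

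**Figure D4:**
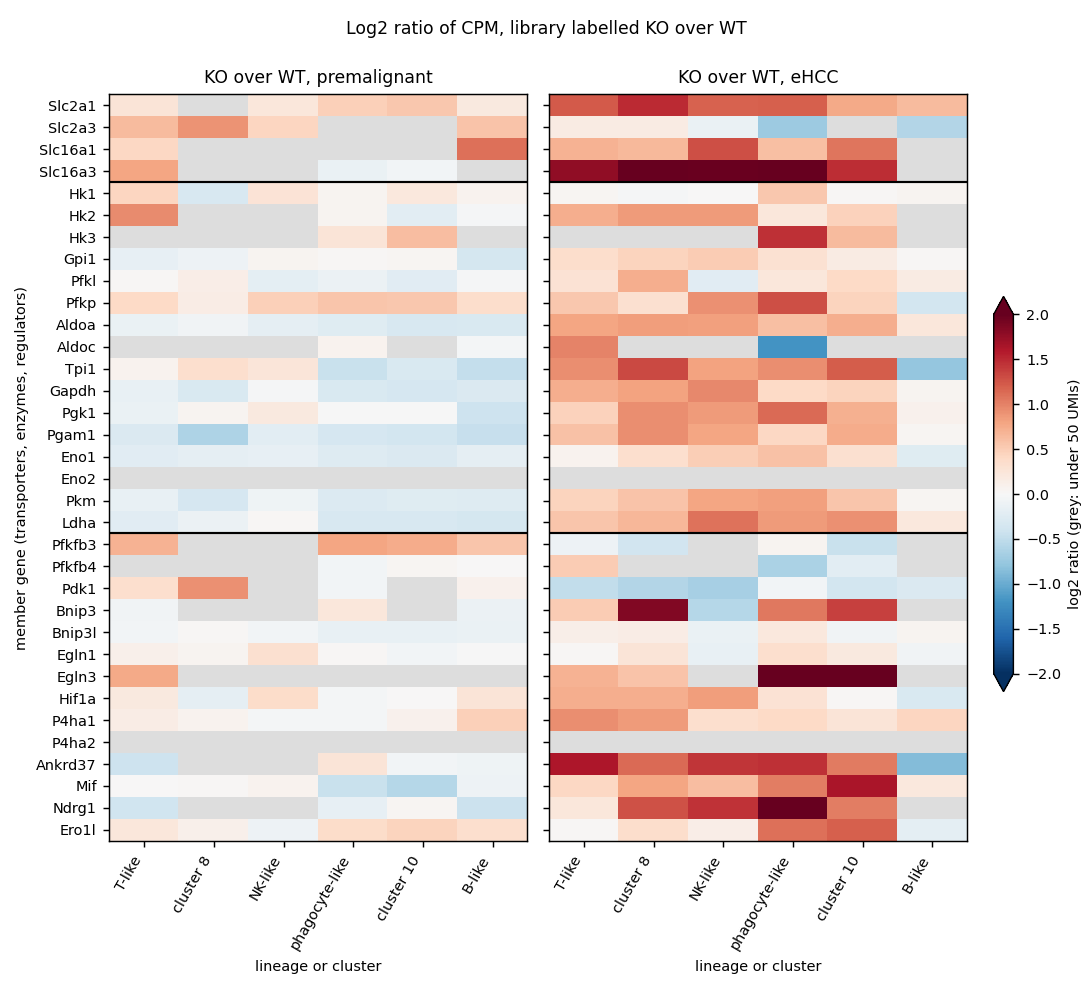
Colour gives the log2 ratio of CPM, library labelled KO over WT, for each member (rows) in each lineage or cluster (columns), at premalignant stage and at eHCC; grey marks under 50 UMIs. At eHCC most enzymes are above 0 outside B-like cells, whereas at the premalignant stage few members pass 1.5-fold.

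In premalignant liver the enzyme medians were at or below 0, KO over WT, in each lineage compared. In T-like cells 5 of 29 members were higher and 0 lower (background 11.6% and 3.37%), and the enzyme median was -0.14. In NK-like cells 0 of 20 members passed the fold in either direction (11.9% and 4.72%). In B-like cells 1 of 29 was higher (11.8% and 5.3%) and the enzyme median was -0.28. In phagocyte-like cells 1 of 29 was higher and 0 lower (6.24% and 5.7%), with an enzyme median of -0.12, and LSEC-like cells had 1 of 32 higher and 1 lower (4.89% and 2.98%), with an enzyme median of -0.20. Plasmacytoid dendritic-like cells had 1 of 21 higher and 0 lower (9.03% and 4.06%), cluster 10 had 2 of 26 and 0 (5.61% and 5.38%), and cluster 8 had 2 of 20 and 1 (13.8% and 6.87%). These shares were close to or below the background except for the higher members of T-like cells, of which only 3 had an interval clear of 0. That count of 5 became 3 with doublets kept or each library clustered alone, and 1 after thinning to 1000 UMIs. The members that passed with an interval clear of 0 were few. Hk2 in T-like cells was 8.79 against 4.57 CPM (91 and 44 UMIs) and Slc2a3 61.4 against 39.5 CPM. Pfkfb3 was 16.9 against 10.4 CPM in T-like cells and 45.1 against 26.1 CPM in phagocyte-like cells. Slc16a1 was 14.5 against 6.77 CPM in B-like cells.

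Between the stages, the libraries labelled KO had many members higher at eHCC while the median gene was lower. The lineages were filled by different clusters at the 2 stages: T-like cells by clusters 12, 3 and 14 (28.5%, 27.5% and 19.0%) before and cluster 2 (60.7%) at eHCC, and B-like cells by cluster 0 (98.01%) before and cluster 18 (97.6%) at eHCC. Phagocyte-like cells were mostly cluster 10 at both stages (59.7% and 62.3%), and NK-like cells were cluster 9 at both. In phagocyte-like cells 18 of 32 members were higher at eHCC and 3 lower, against 9.8% and 29.4% of all genes. In T-like cells 11 of 31 were higher and 5 lower (7.72% and 38.9%), in NK-like cells 12 of 27 were higher and 3 lower (5.54% and 39.1%), and in B-like cells 0 of 28 were higher and 5 lower (3.31% and 40%). The median gene stood at -0.24 for phagocyte-like, -0.40 for T-like, -0.42 for NK-like and -0.44 for B-like cells. Relative to that median, 21 members were higher and 2 lower in T-like cells, where 18.3% and 19.4% of all genes were. The centred counts were 19 and 2 in NK-like cells (16.4% and 17.4%), 21 and 2 in phagocyte-like cells (16.3% and 18.1%) and 13 and 2 in B-like cells (13.8% and 17.4%). The direction of the B-like count thus rests on the scaling. Within cluster 10, 16 of 30 members were higher and 1 lower (9.21% and 24.6%), and within cluster 8, 10 of 26 and 2 (7.67% and 29.9%).

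Egln3 showed the widest stage difference, at 22.6 CPM (314 UMIs) in phagocyte-like cells at eHCC against 1.29 CPM (4 UMIs) before. In the same cells Bnip3, a mitophagy receptor and HIF target, was 53.1 against 12.2 CPM, Mif 417 against 102 CPM, Tpi1 313 against 83.4 CPM and Slc16a3 197 against 35.7 CPM. In T-like cells Slc16a3 was 16.9 against 3.77 CPM, Ankrd37 24.2 against 7.53 CPM and Gapdh 1358 against 702 CPM. Those that were lower included Pdk1, at 21.2 against 53.3 CPM, Pfkfb3, at 9.11 against 16.9 CPM, and Hk1, at 39.5 against 60.9 CPM. NK-like cells had Ankrd37 at 13.7 against 2.72 CPM from 57 and 5 UMIs, and Ndrg1 at 15.1 against 5.45 CPM. Ndrg1 was 4.54 against 7.72 CPM in T-like cells, the other direction.

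In the libraries labelled WT the same stage comparison gave fewer members past the fold. Phagocyte-like cells were mostly clusters 10 (59.8%) and 20 (28.3%) before and clusters 6 (45.0%) and 11 (35.4%) at eHCC, and T-like cells clusters 14, 12 and 3 before and 3 and 7 at eHCC. Counts were 3 higher and 2 lower of 30 in T-like cells (background 8.17% and 14.8%), 0 and 2 of 21 in NK-like cells (5.59% and 19.6%), 2 and 1 of 29 in B-like cells (3.92% and 20.1%), and 5 and 4 of 32 in phagocyte-like cells (11.8% and 25.7%). Cluster 10 had 4 of 28 higher and 2 lower (6.35% and 12%), and cluster 8 had 2 of 25 and 3 (7.14% and 15.6%). Enzyme medians of the 4 lineages were -0.08, -0.20, -0.04 and 0.15, where those of all genes were -0.16, -0.22, -0.21 and -0.21. Relative to the median gene, 11 members were higher and 2 lower in phagocyte-like cells (16.9% and 17.9% of all genes). Hk2 in T-like cells was 13.6 against 4.57 CPM, a log2 ratio of 1.58, and so higher at eHCC under both labels. Slc2a1 in phagocyte-like cells was 42.7 against 19.7 CPM and Bnip3 25.7 against 10.5 CPM, the latter turning to a log2 ratio of -0.094 after cells were thinned to 1000 UMIs. Ndrg1 was 10.1 against 39.96 CPM, lower at eHCC, whereas the libraries labelled KO had 53.0 against 35.7 CPM. Within cluster 10 of the libraries labelled WT Ndrg1 was 27.2 against 42.2 CPM. In B-like cells Slc2a3 was 17.9 against 11.5 CPM from 36 and 122 UMIs.

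**Figure D5:**
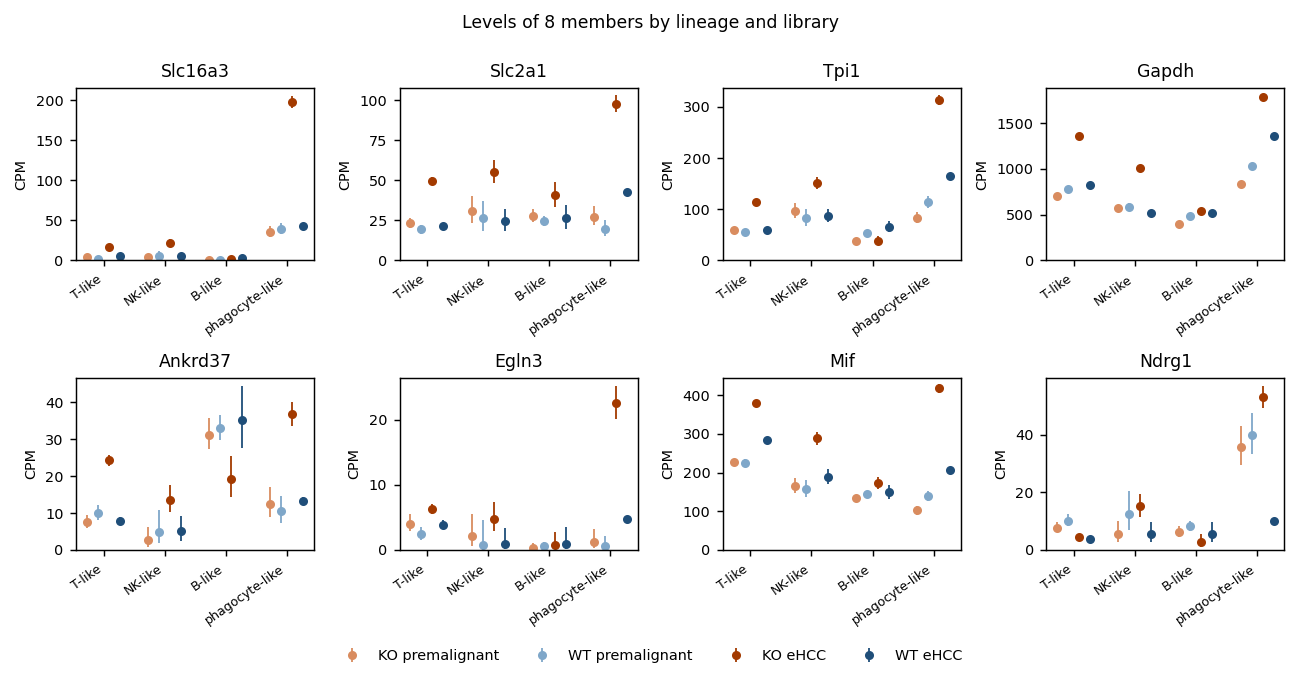
Points with exact 95% counting intervals give the CPM of 8 members by lineage, 1 colour per library. The eHCC library labelled KO lies above the other 3 in T-like, NK-like and phagocyte-like cells for Slc2a1, Gapdh and Tpi1, and not in B-like cells for Tpi1.

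Other genes of the pathways, taken from lists of 21 glycolysis and 22 HIF and hypoxia genes, were counted in the same way. At eHCC, KO against WT, 4 of 16 measured hypoxia genes were higher and 1 lower in T-like cells (all genes: 8.34% and 18.2%). The counts were 3 of 12 and 1 for NK-like cells (8.43% and 15.3%), 5 of 17 and 2 for phagocyte-like cells (13.7% and 19.6%) and 1 of 10 and 1 for B-like cells (7.38% and 12.8%). Of the other glycolysis genes 1 of 10 was higher and 1 lower in T-like cells, and 3 of 13 higher and 5 lower in phagocyte-like cells, read against the same shares. Vegfa, the angiogenic growth factor and HIF target, was 7.64 against 3.23 CPM in T-like, 164 against 46.1 CPM in NK-like and 156 against 46.2 CPM in phagocyte-like cells. Ddit4, a stress-induced inhibitor of mTORC1 and also a HIF target, was lower, with log2 ratios of -1.67 in T-like and -1.08 in NK-like cells. Ldhb, the subunit that favours pyruvate, was 23.5 against 105 CPM in phagocyte-like cells, so that Ldha and Ldhb differed in opposite directions. The muscle enolase Eno3 was 39.7 against 8.47 CPM there.

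Other gene lists differed between the eHCC libraries as well. The median log2 ratio of 15 immediate-early genes, which respond to handling and activation, was -0.77, -1.05, -0.52 and -0.88 in T-like, NK-like, B-like and phagocyte-like cells. Globin and other erythroid transcripts, which reach other cells as free RNA, made up 1.17% of UMIs in T-like cells of the library labelled KO and 0.109% in the one labelled WT, and 0.900% against 0.0213% in B-like cells. Cell cycle genes had medians of 0.42, 1.03 and 0.65 in T-like, NK-like and phagocyte-like cells. Their part in the member differences was not tested.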

How the data were processed

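The deposited values are raw UMI counts per gene and cell barcode, which the authors obtained from Cell Ranger (version 3.0.1 in the file headers); the submitters' processing notes also name bcl2fastq 2.20.0 and the builds GRCh38 and mm10, without the role of each. Barcodes were kept from 500 UMIs and 300 genes upwards if mitochondrial UMIs made up no more than 25%, and the top share by a simulated-doublet score, 0.8% per 1000 cells, was removed in each library. The 4 libraries were clustered together (2000 variable genes without the 34 members, 40 components, 15 neighbours, Leiden in igraph 0.11.9) into lineages at resolution 0.1, chosen after seeing the data, and into clusters at resolution 1. Both were named from marker lists needing at least 3 detected markers. Counts were summed per lineage and library with Python 3.11.15, numpy 2.4.6 and scipy 1.17.1, and given as CPM with exact Poisson intervals, ratios with exact conditional binomial intervals and shares with Clopper-Pearson intervals at 95%; the script was tested on simulated data.

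A comparison needed 100 cells in both libraries. A member was named as higher or lower when it had 50 UMIs in both libraries together, differed by at least 1.5-fold and its interval left out 0 on the log2 scale. Since each group has 1 library, no test between groups was made. The alternatives were 20 UMIs as the minimum, 10% mitochondrial UMIs, doublets kept, cells thinned to 1000 UMIs, cells weighted equally, centring on the median gene, leaving out the cell with most UMIs of a gene, clustering each library alone and, chosen after seeing the data, comparison within clusters. The members and lists were chosen with earlier results of these data known.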

Additional observations from a re-analysis of the deposited data

Results flagged for a closer look

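Several members passed the 1.5-fold limit in opposite directions in different lineages under the same contrast, all with counting intervals clear of 0. The differences between lineages were not tested, since each group has 1 library. Between the eHCC libraries, labelled KO over WT, the log2 ratio of Aldoc was 0.98 in T-like and -1.20 in phagocyte-like cells. That of Tpi1 was 0.93 in T-like, 0.80 in NK-like and 0.92 in phagocyte-like cells and -0.77 in B-like cells. Ankrd37 had 1.61, 1.43 and 1.46 in T-like, NK-like and phagocyte-like cells and -0.87 in B-like cells.

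Between the stages in the libraries labelled KO, Ankrd37 had log2 ratios of 1.69 in T-like, 2.33 in NK-like and 1.55 in phagocyte-like cells, against -0.70 in B-like cells. Ndrg1 had -0.77 in T-like and -1.19 in B-like cells, against 1.47 in NK-like cells. In this contrast 38.9% of all genes in T-like and 40% in B-like cells were lower by at least 1.5-fold. Relative to the median gene, Ankrd37 in B-like and Ndrg1 in T-like cells lay within 1.5-fold. B-like cells were also mostly of cluster 0 before and of cluster 18 at eHCC. Between the stages in the libraries labelled WT, Slc2a3 had -0.92 in T-like and -1.02 in NK-like cells, against 0.64 in B-like cells.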

How the results depend on the processing

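No paired analysis was possible because each group has 1 library and the replicate numbers name no pairs. Of the alternative values for medians, counts and hexokinase shares, 476 stayed close to the reported ones, 40 moved and 1 changed sign; of those for single members, 1240 stayed close, 158 moved and 3 changed sign. A minimum of 20 UMIs and a 10% mitochondrial limit moved none of these values. The lower minimum leaves the ratio of a single member unchanged by construction. Its 210 single-member values, all counted as close, therefore say nothing about robustness. The member and library pairs with the same highest lineage numbered 101 to 134 of 136 over the settings tried. Why the values below moved was not tested, beyond what a setting changes by its own construction.

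Centring on the median gene gave an enzyme median of -0.25 for T-like cells in premalignant liver (KO over WT). For the stages in the libraries labelled KO it gave a regulator median of 0.70 with 21 members higher and 2 lower in T-like cells, an enzyme median of 0.91 with 19 higher in NK-like cells, medians of 0.64 (enzymes) and 0.21 (regulators) with 2 lower in B-like cells, and enzyme medians of 1.21 in phagocyte-like cells and 1.10 in cluster 10. For the stages under WT it gave an enzyme median of 0.016 in NK-like cells, the value that changed sign, 11 members higher in phagocyte-like cells, and medians of -0.11 and 0.23 in cluster 8.

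Thinning to 1000 UMIs left fewer UMIs per gene. Of the single-member values, 57 stayed close, 61 moved and 1 changed sign, and members left under 50 UMIs gave no value. Thinning gave 1 member higher in T-like cells of premalignant liver, and 7 higher in NK-like cells and 7 in cluster 8 at eHCC. Under KO between the stages it gave 3 lower in T-like, 3 higher in NK-like and 2 lower in B-like cells. Under WT the NK-like enzyme median was -0.0009, and in phagocyte-like cells the regulator median and Bnip3 were both -0.094. The B-like enzyme median at eHCC was 0.19. Hk2 shares became 52.6%, 56.1%, 72.9% and 81.2% in phagocyte-like cells, 8.21% in KO premalignant and 22.3% in WT eHCC T-like cells.

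With doublets kept, 3 members were higher in T-like cells of premalignant liver, the B-like enzyme median at eHCC was 0.16, 2 members were higher in phagocyte-like cells between stages under WT, and Slc2a3 in phagocyte-like cells turned to 1.62 at eHCC and 0.49 between stages under KO. With cells weighted equally, the B-like enzyme median was 0.16 and the Hk2 share of KO premalignant T-like cells 9.71%. With each library clustered alone, 3 members were higher in T-like cells of premalignant liver and the enzyme median of plasmacytoid dendritic-like cells there was 0.69; phagocyte-like cells gave no value in comparisons with premalignant liver. Without the top cell the cluster 8 regulator median under WT was 0.087. Within clusters 15 and 20 the enzyme medians at eHCC were 0.97 and 0.18, with 7 members higher in cluster 20. Clusters gave no value with doublets kept or libraries clustered alone.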

Other observations

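Within the WT eHCC library the macrophage clusters stood apart in these genes. Cluster 11 (1303 cells, led by Chil3 and Gpnmb) had 1892 CPM of Gapdh, 393 CPM of Ldha and 259 CPM of Pgk1, against 928, 180 and 85.9 CPM in cluster 6 (1654 cells, led by Fcrls and Ms4a7). Slc2a1 was 68.1 against 18.6 CPM, Slc16a3 69.7 against 16.5 CPM, Ankrd37 24.6 against 3.46 CPM and Egln3 9.24 against 1.42 CPM. Hk2 was alike in both, at 127 and 121 CPM. These are clusters of 1 library, formed without the members.

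Neutrophil-like cells of the same library were of cluster 22 (304 cells, led by Retnlg and Ngp) and cluster 25 (led by Siglecf and Il1r2), whose 411 cells included 367 named neutrophil-like. Values are of whole clusters. Cluster 22 had more Slc16a3 (525 against 86.3 CPM), Slc2a3 (297 against 48.0 CPM) and Hk3 (93.5 against 13.9 CPM). Cluster 25 had more Hk2 (142 against 44.0 CPM), Mif (230 against 45.1 CPM) and Egln3 (41.1 against 16.3 CPM). Mast cell-like cells, 235 in the KO eHCC library and 2 in the WT one, had 707 CPM of Ndrg1, 311 CPM of Ero1l, an oxidase of the endoplasmic reticulum, 226 CPM of Hk2, 918 CPM of Ldha and 90.3 CPM of P4ha2.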
